A study of Bos taurus with 16 samples.

Results

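Of 1254390 regions of read coverage that the deposited annotation places outside every gene of the bovine genome UMD3.1, 2589 (0.206%) were covered at 3 or more in all 16 animals. These regions were chosen by that level, so their levels are given as a description. Mitochondrial coverage and 2 windows, on chromosomes 3 and 14, were left out of the choice, and 60 further intergenic regions met the level inside those windows. Each value is the average number of reads over the bases of a region, scaled per library by the authors, so levels of regions of different length can be set side by side. Among all 10515 regions of any kind at this level in every animal, the intergenic regions made up 24.6%, beside 7548 regions with an annotated exon and 312 in introns only.

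The data come from rumen papillae, the finger-like projections of the rumen wall, of 16 crossbred steers aged 344 ± 48 days, with 1 library of polyadenylated RNA per animal read as single reads of 50 bases. The animals were picked for high or low body weight gain combined with high or low feed intake, with 4 animals in each of the 4 combinations. A library is called by its gain, its intake and a number that only names the animal. All ate 1 ration (57.35% corn, 30% distillers grains, 8% alfalfa, 4.25% supplement and 0.4% urea) without restriction and were given no treatment, so gain and intake are what each animal showed and were not assigned.

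Coverage outside annotated genes can have several origins. A genome annotation lists the gene models known when it was made, and genes or exons missing from it leave their reads in the intergenic class. Transcripts may also run past the annotated last exon when a 3′ untranslated region is modelled too short, long noncoding RNAs are often left out of gene sets, and processed pseudogenes, copies of messenger RNAs pasted back into the genome, can attract reads that belong to the parent gene. The file gives neither strand nor the number of places a read fits, so for any 1 region these origins cannot be told apart from the coverage.

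The libraries held an estimated 11.9 to 21.2 M reads, computed from the value of 1 read in each. Mitochondrial regions took 8.75 to 28.0% of the coverage summed over all bases. Most keratinocyte markers were covered in every library: coverage of the best exon region was 53.8 to 349 for KRT5, the basal-layer keratin, and 77.9 to 213 for DSP, the desmosomal plaque protein. KRT4, a keratin of wet stratified epithelia, was at 0 to 2.73 and DSG1, a desmosomal cadherin of upper layers, at 1.05 to 124. Markers of other cells were mixed. Of the fibroblast genes, COL3A1 was at 41.9 to 392 and LUM at 14.2 to 175, while COL1A1 ran from 0 to 84.3. CD68, of macrophages, was at 19.98 to 37.3, but CD163, also of macrophages, was at 0 to 2.92. PTPRC, of leukocytes, was at 0.45 to 7.27 and CD79A, of B cells, at 0 to 0.78. The smooth-muscle genes ACTA2 and TAGLN ran from 0.2 to 39.1 and from 0.9 to 38.8. Endothelial PECAM1, CDH5 and CLDN5 were at 2.41 to 7.83, 0.57 to 1.79 and 0 to 4.46. In bulk tissue, fewer cells of a type and less RNA per cell cannot be told apart. A first-exon index (the mean over 1503 genes of log2 coverage in the first exon minus that in later exons) set 5 libraries apart, at −3.42 to −2.67 against −1.86 to −0.57 in the other 11. These 5 were high gain high intake 4, high gain low intake 2, 3 and 4, and low gain low intake 3. They are unevenly spread over the groups: 4 of the 5 came from the high-gain side and 4 of the 5 from the low-intake side. For several results that move with these libraries, values in them or without them are given, though not for every such result. The part of these libraries in any result was not tested.

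Together the 2589 regions covered 2342 kb. Regions under 250 bases are called short pieces here and those of at least 1000 bases long blocks, and the rest belong to neither. Their length ran from 47 to 16796 bases with a median of 169, against a median of 288 for exon regions at the same level. In all, 1637 regions (63.2%) were under 250 bases, compared with 46.1% of the exon regions, and 571 (22.1%) were at least 1000 bases long. The short pieces had a median level of 14.3, and the long blocks one of 7.96. Over all 2589 the median level was 11.6, and single regions ranged from 3.68 to 2815. On the X chromosome lay 165 of them (6.37%), against 3.51% of the exon regions. A region at its lowest library rested on a median of 44.5 estimated reads, and 241 regions had a library with fewer than 10.

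**Figure D1:**
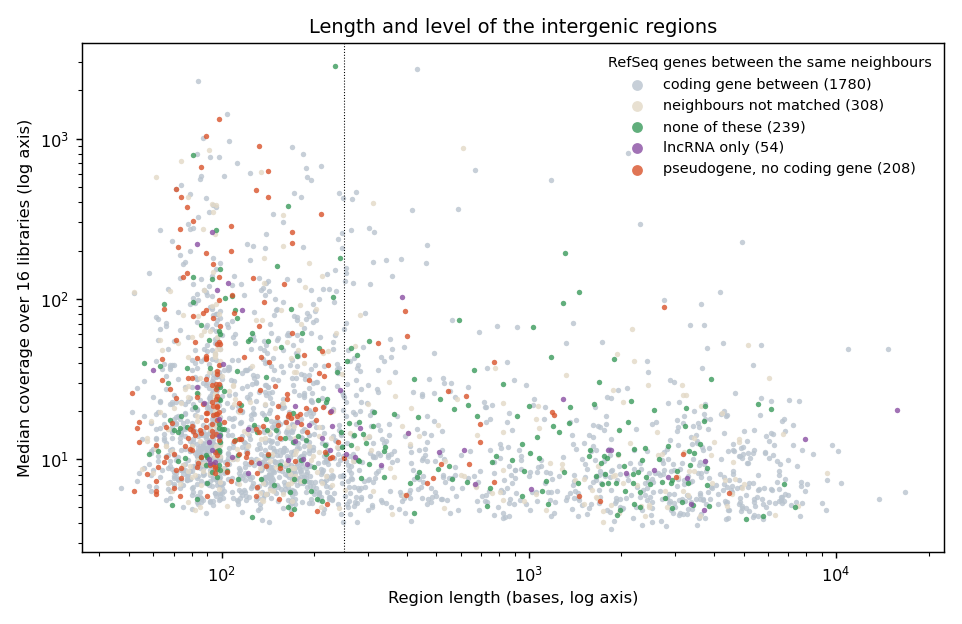
Each point is 1 of the 2589 intergenic regions, with its length in bases on the x axis and its median coverage over the 16 libraries on the y axis, both log axes. Colours give the kinds of gene that RefSeq places between the same neighbouring genes, and the dotted line marks 250 bases, below which 63.2% of the regions lie.

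At the edge of the level rule, the regions just inside had a lowest library at 3: chr11:7419907-7423188 beyond IL1RL1, chr16:5134026-5135477 between CD55 and CR2, and chr19:13695268-13695352 between MRM1 and ACACA. Those just outside had a lowest library at 2.99 and similar medians, for example 6.92 at chr13:48095127-48095221 and 5.74 at chr17:64010556-64011522. The library that was lowest was most often high gain high intake 2 (643 regions), followed by low gain low intake 3 (404) and low gain high intake 4 (384). The first of these also had the smallest share of its summed coverage in the intergenic regions, 6.16%.

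Most of the regions lay in gaps where a later annotation has genes. The annotated neighbours on both sides were looked up in RefSeq's table for the assembly ARS-UCD2.0, which was used for names and gene order only. It matched 12122 of 12502 gene names in the file (96.96%). For 1780 regions (68.8%) at least 1 protein-coding gene that is not among the file's gene names stood between the same neighbours. For 208 (8.03%) RefSeq had no coding gene but a pseudogene, for 54 (2.09%) only long noncoding RNAs, and for 239 (9.23%) none of these. For the other 308 the neighbours were unmatched or out of order. Intergenic regions a little lower, with a minimum from 1 to under 3 (3796 regions), showed 75.4% with a coding gene and 3.24% with a pseudogene only. A gene between the same neighbours does not show that the region is that gene.

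The pseudogene intervals held short and well-covered pieces. Their regions had a median length of 98 bases and 88.9% were under 250 bases, and their median level of 18.9 stood beside 10.8 for the intervals with a coding gene. Regions with long noncoding RNAs only had a median length of 202.5 bases and a median level of 12.1.

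In 720 regions exactly 1 coding gene, from a total of 355 genes, stood between the neighbours. Those with the most regions were PARD3, a cell polarity protein, with 13 regions covering 6367 bases between CUL2 and NRP1, then SORT1, a sorting receptor of the Golgi and endosomes, and NCKAP1, a subunit of the actin-regulating WAVE complex, with 12 each. CRYBG1 and SLC44A1, a choline transporter, followed with 11 each, and ARSJ, a sulfatase family member, with 9 at medians from 22.8 to 174. Among several genes with 7 regions, AHNAK, a giant scaffold protein, had regions covering 8648 bases at medians from 5.39 to 111. EIF4G1, the scaffold of the translation initiation complex, also had 7, with medians of 12.4 to 39.3.

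Joined where they lay within 5 kb of each other, the regions formed their most numerous group in the SORT1 interval on chromosome 3, between PSMA5 and MYBPHL, with 12 regions spanning 33826 bases. There, 11 regions of 98 to 312 bases with medians from 5.19 to 14.2 were followed by 1 block of 7221 bases, chr3:34211064-34218284. In that block all 16 libraries lay between 12.5 and 21.7. A row of regions that ends in its longest block also made up the second, with 10 regions between NGLY1 and MCM4 on chromosome 27. The last block there was 7507 bases long (chr27:40045246-40052752) and its median was 5.08. RefSeq has these neighbours on different chromosomes. The next place was shared by 9 regions within 2483 bases between MAGT1 and MAGEE2 on the X chromosome and by 9 beyond the last exon of IPO5, an importin, from 51 bases away to a block of 3612 bases. In all, the 2589 regions formed 1580 such groups, 1068 of them single regions and 67 of 5 regions or more.

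Some further long blocks with high coverage are described here, picked after their values were seen. Between TRIM41 and TRIM52, where RefSeq has RACK1, a ribosome-bound scaffold protein, a block of 4954 bases (chr7:41761671-41766624) had a median of 226.6 and ranged from 70.1 to 369. In the 5 libraries low in first exons it ran from 70.1 to 369 with a median of 151. The other 11 ran from 157 to 296 with a median of 235, so the ranges overlapped. Between DUOXA1 and SORD, where RefSeq has DUOX2 and DUOXA2, the hydrogen peroxide-producing oxidase of epithelial surfaces and its maturation factor, a block of 10940 bases (chr10:65549125-65560064) had a median of 48.2. A run of 12 regions between CLCA1 and ODF2L on chromosome 3 covered 19362 bases at medians of 18.6 to 194.4, and RefSeq has no coding gene, pseudogene or long noncoding RNA between these neighbours.

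The DUOXA1 to SORD block was lower in the 5 libraries low in first exons (19.7 to 39.3) than in the other 11 (43.1 to 72.1), without overlap. Its log2 difference between high and low intake was 0.48 ± 0.22 (SE) and 0.19 ± 0.18 without those 5 libraries.

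The longest region of all, 16796 bases at chr25:7942583-7959378, lay between CARHSP1 and ATF7IP2, an interval in which RefSeq lists USP7, a deubiquitinase, among 4 coding genes. Its median was 6.22, with a range of 4.61 to 12.6. Another, of 14755 bases, chr10:46758225-46772979, lay 12050 bases from APH1B in the interval that holds CA12, a membrane carbonic anhydrase. It was covered at a median of 48.6, from 20.9 to 71.8.

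The highest level of all was at chr5:57527823-57528056, 234 bases long, 414 bases from ZC3H10 and 3404 from PA2G4, an RNA-binding growth regulator. The 8 high-gain libraries ran from 2079 over a median of 3106 to 4428 and the 8 low-gain libraries from 2174 over 2628 to 3066, so the sides overlapped. All 5 libraries low in first exons (3066 to 4428) were above all 11 others (2079 to 3014). PA2G4's best-covered exon region had a median of 17.4.

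Next came chr5:27599303-27599736, 434 bases in the keratin cluster between KRT6A and KRT75, with a median of 2710. RefSeq has KRT6B and KRT6C, further keratins of stratified epithelium, in this interval. It ran from 1259 over 3841 to 4602 in high-gain libraries and from 1223 over 2136 to 3507 in low-gain libraries. The sides overlapped, and the log2 difference was 0.50 ± 0.29 (SE, 8 against 8, limma, adjusted p 0.798). KRT6A's own best exon region had a median of 2051 and a gain difference of 0.46 ± 0.24 (SE).

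The other 8 of the 10 highest were all 84 to 170 bases long. The piece between NXT2 and TMEM164 on the X chromosome (84 bases, median 2296) ranged from 1069 to 2827. In the piece between FAM110B and UBXN2B (104 bases, median 1415) the range was 843 to 2629, and in that between SYT4 and PIK3C3 (98 bases, median 1320) it was 1089 to 2021. The piece 471 bases from RPS27, a ribosomal protein gene, had a median of 1032 and a range of 668 to 1477, while the best RPS27 exon region had a median of 103. Between FAHD1 and SEPX1 the piece of 170 bases stood apart by its spread, from 55.03 in low gain low intake 3 to 1282, with a median of 885.

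**Figure D2:**
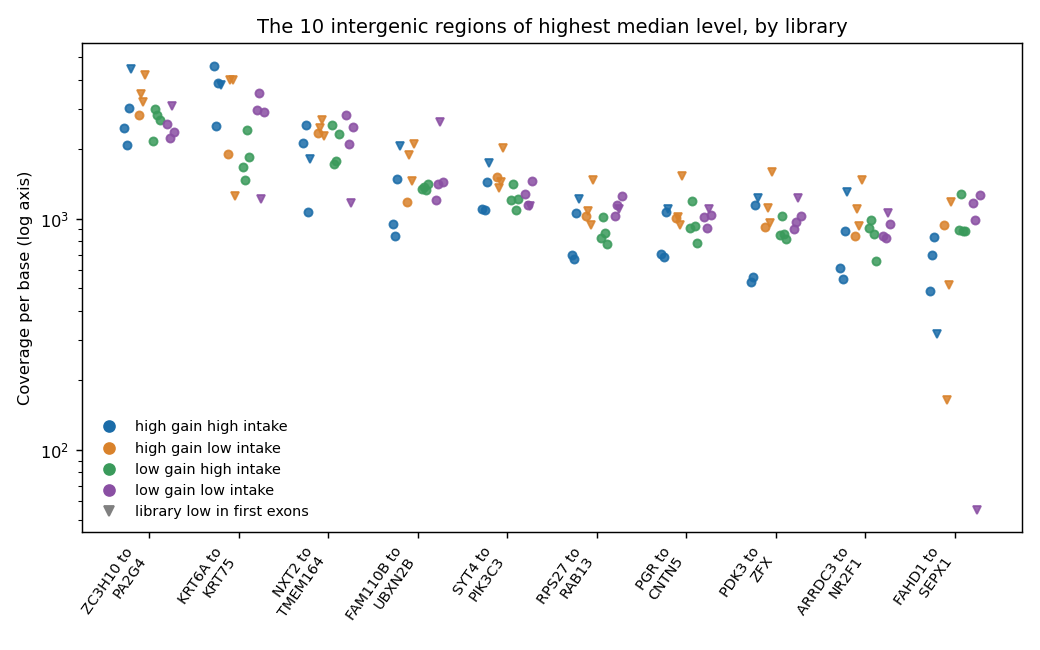
Coverage per base (log axis) of the 10 intergenic regions with the highest median, 1 point per library, coloured by group, with triangles for the 5 libraries low in first exons. In 9 of the regions the points span less than 4-fold, and the piece between FAHD1 and SEPX1 ranges from 55.03 to 1282.

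Distance to a gene was taken to the nearest covered region with an exon or intron label, and was 43.5 kb at the median. A gene, or an end of a gene, without a covered region does not count. The last exon is the highest-numbered exon of a gene among the covered regions. Within 1 kb of a gene lay 259 regions and within 5 kb 440 (17.0%), while 825 (31.9%) were more than 100 kb away. The most distant, chr4:1-827 and chr4:1760259-1760319, lay 5104114 and 3344622 bases from GRB10, and chr12:74118272-74118365 was 2734018 bases from CLDN10. Of the 440 within 5 kb, 330 (75.0%) were beside the gene's last exon and 82 (18.6%) beside its first, and for 28 the end was unclear. The regions beside last exons had a median length of 633.5 bases, and those beside first exons one of 213. Beside last exons the median level was 11.5 and that of the adjoining exon region 5.08, with 255 of the 330 pairs higher outside the gene. Beside first exons the adjoining exon region had a median of 0.235, and 79 of 82 pairs were higher outside the gene. The choice of regions by level favours this direction.

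Within 50 kb of translation genes stood 39 regions near 11 genes, with medians of 4.82 to 1032. RNA-processing genes had 13 near 7 genes (5.45 to 52.5) and nuclear genes of oxidative phosphorylation 11 near 7 genes (6.34 to 326). Genes of epithelial keratins and junctions had 9 regions near 7 genes. The longest there ran on from desmocollins, the cadherins of desmosomes: 3924 bases starting 47 bases beyond the last exon of DSC2 (median 31.5) and 2750 bases starting 72 bases beyond that of DSC3 (median 88.7). Genes of the cornified surface had 3, of which 2 followed SERPINB5, an epithelial serpin, 216 and 2446 bases from its last exon (medians 64.3 and 40.9). The third, 27053 bases from CERS3, a ceramide synthase of the skin barrier, was 181 bases long with a median of 429 and RefSeq has ADAMTS17 in between. Endothelial genes had 2, near FLT1 (median 5.38) and VWF (18.6), and the ketone body and short-chain fatty acid list 5. For intake, the lists' median log2 differences stood beside −0.20 over all 2589. The share with an unadjusted p under 0.05 in limma stood beside 8.15% of the 2589 and 5.91% of all tested regions. The median was −0.31 for translation (4 of 39 regions under 0.05), −0.42 for RNA processing (1 of 13) and −0.32 for oxidative phosphorylation (1 of 11). It was −0.20 for keratins and junctions (0 of 9), −0.08 for the cornified surface (0 of 3) and −0.31 for endothelium (0 of 2). The ketone body and short-chain fatty acid list had −0.90 (3 of 5), and 4 of its 5 regions are neighbouring pieces beyond 1 gene, SLC16A1. No list held a region past the threshold for gain or intake. None of the 2589 regions had a gene of the stromal matrix, smooth muscle, immune cell or immediate early lists as its nearest within 50 kb. The lists differ in size, and the share of all regions near each list was not counted. The counts of different lists therefore cannot be set against each other.

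Between high and low gain, no region passed the test: limma called 0 of the 2589 for gain, 0 for intake and 0 for their interaction at an adjusted p under 0.05, as it did for 0% of all 41375 regions tested in each comparison. The smallest adjusted p among the 2589 was 0.784 for gain, 0.597 for intake and 1.00 for the interaction. At an unadjusted p under 0.05 there were 59 (2.28%) for gain against 6.32% of all tested, 211 (8.15%) for intake against 5.91%, and 22 (0.850%) for the interaction against 0.694%. Exon regions at the same level in every animal had 1.56% for gain and 8.35% for intake, and intron-only regions 1.92% and 8.97%. The shares of the 2589 were thus close to those of other regions chosen by the same level. Without limma's trend and robust options the counts for the 2589 were 40, 151 and 14, with 0 called again. Single libraries moved the unadjusted counts: leaving out 1 gave 29 to 449 for gain, 104 to 558 for intake and 10 to 55 for the interaction. The count for gain was 449 without low gain low intake 3 and 124 without high gain high intake 2, and it was 29 to 38 without any 1 of low gain low intake 1, 2 or 4, high gain low intake 2 or 3, or high gain high intake 4. For intake it was 558 without high gain high intake 4, 104 without low gain high intake 4, 109 without high gain high intake 1, and 125 and 126 without high gain low intake 2 and high gain high intake 2. For the interaction it was 10 without high gain low intake 1 or low gain high intake 1, and 35, 38 and 55 without high gain high intake 3, high gain high intake 4 and low gain low intake 3.

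By direction, the unadjusted gain list held 43 regions (1.66%) higher with high gain, against 0.735% of all tested, and 16 (0.618%) lower, against 5.58%. For intake, 27 (1.04%) were higher with high intake, against 1.39% of all tested, and 184 (7.11%) lower, against 4.52%. The 2589 had to reach 3 in every library and the tested regions in at least 4, so the sets differ by this rule. The median log2 difference over the 2589 was 0.11 for gain, with 69.6% above 0, and −0.20 for intake, with 25.2% above 0. Over all tested regions the medians were −0.08 and 0.01. Exon regions at the same level in every animal had medians of 0.09 and −0.22, close to those of the intergenic regions.

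These medians moved with the libraries. With the first-exon index as a covariate the gain median was −0.17, the reverse sign, and 72 of the 2589 (2.78%) were called for gain, against 8.91% of all tested. The gain median was 0.05, with 57.3% above 0, when the 5 libraries low in first exons were left out, and 0.03, with 55.8% above 0, when high gain high intake 4 alone was. Without low gain low intake 3 it was 0.17 and 22 were called, against 5.25% of all tested. The intake median was −0.19 without all 5 libraries low in first exons, beside −0.15 over all tested regions. With the covariate it was −0.06, beside −0.09 over all tested regions. Quantile normalization shifted the gain median of all tested regions from −0.08 to 0.16 and that of the 2589 to 0.27, with 87.0% above 0.

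**Figure D3:**
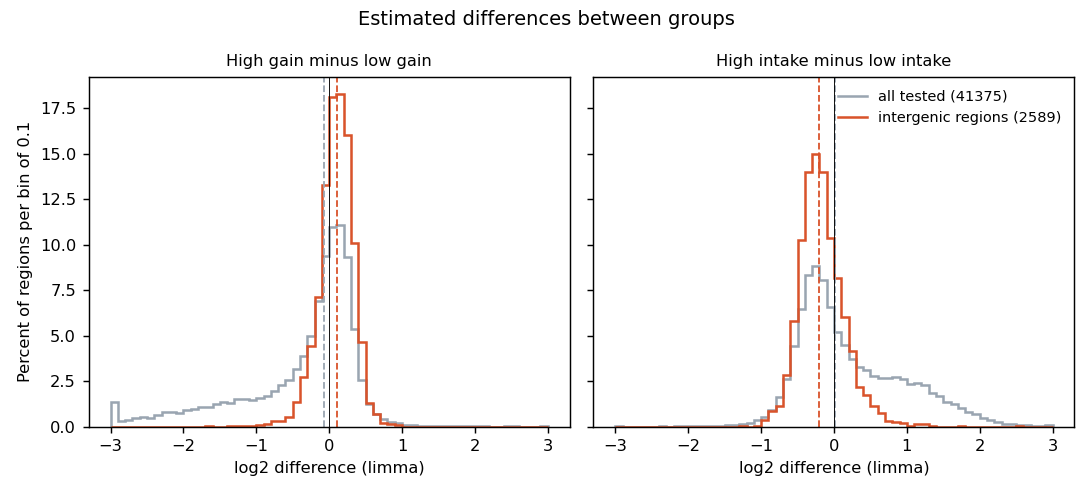
Percent of regions (y axis) per bin of 0.1 in the log2 difference between 8 and 8 libraries (x axis), for gain and for intake, with dashed lines at the medians. Values beyond 3 in size are counted in the end bins, and the 2589 intergenic regions centre at 0.11 and −0.20 while all tested regions have longer tails.

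Among the regions with the smallest unadjusted p for gain, chr14:31840571-31840751 (181 bases, between MTFR1 and DNAJC5B) had the lowest. It ran from 7.52 over a median of 10.03 to 13.9 in high-gain libraries and from 9.38 over 28.6 to 42.0 in low-gain libraries. High-gain libraries lay at the low end, and the sides overlapped. The log2 difference was −1.28 ± 0.29 (SE, 8 against 8), with an adjusted p of 0.784 in limma. Without the 5 libraries low in first exons it was −1.52, with an adjusted p of 0.0253, and without low gain low intake 3 it was −1.49, with an adjusted p of 0.00956. With the first-exon index as a covariate it was −0.78, with an adjusted p of 0.0747.

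The region chr10:1763581-1764352, 772 bases long and 2179 bases from EPB41L4A, ran from 22.9 over 29.1 to 45.5 with high gain and from 33.5 over 49.0 to 60.8 with low gain. Its difference was −0.64 ± 0.18 (SE). The other 3 lower with high gain were chr7:33639001-33639175, chrX:66723374-66723467 and chr13:47905305-47905389, with log2 differences of −1.64, −0.74 and −0.71. At the first of them the 5 libraries low in first exons were at 3.43 to 9.44 and the other 11 at 15.8 to 97.5, and without those 5 its difference was −0.84. The 5 higher with high gain differed by 0.43 to 0.63. They were chr22:54694726-54694817, chr3:36547872-36547961, chr8:74374038-74374249, chr26:23687608-23687754 and chr18:2111941-2112138, the last between GLG1 and FA2H, a fatty acid hydroxylase, and its difference was 0.42 without the 5 libraries. All 10 had an adjusted p of 0.784 in limma. Without low gain low intake 3, 5 of the 10 passed, those at chr14:31840571-31840751, chrX:66723374-66723467, chr10:1763581-1764352, chr8:74374038-74374249 and chr7:33639001-33639175, with adjusted p of 0.00956, 0.0306, 0.0322, 0.0420 and 0.0493. With the first-exon index as a covariate none of the 10 passed, at adjusted p of 0.0747 to 0.861. There the difference was −0.10 at chr7:33639001-33639175, −0.28 at chrX:66723374-66723467, −0.39 at chr13:47905305-47905389, 0.20 at chr8:74374038-74374249 and 0.29 at chr26:23687608-23687754.

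For intake, the largest difference downward was at chr3:6365704-6367664, 1961 bases between RGS4 and RGS5, regulators of G-protein signalling of which RGS5 is a pericyte gene. High-intake libraries ran from 3.89 over 13.2 to 14.6 and low-intake libraries from 15.7 over 18.5 to 80.2. The sides did not overlap, and the highest value came from low gain low intake 3. The log2 difference was −1.26 ± 0.33 (SE, 8 against 8), with an adjusted p of 0.597 in limma. It was −1.01 once the 5 libraries low in first exons were left out. In RGS5's best-covered exon region the values were 1.75 over 5.02 to 6.46 with high intake and 6.50 over 7.77 to 34.6 with low intake, a difference of −1.34 ± 0.33 (SE, adjusted p 0.597).

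The regions beyond SLC16A1 had estimates in the same direction, none past the threshold. This gene encodes the monocarboxylate transporter that carries lactate, ketone bodies and short-chain fatty acids across the rumen epithelium. Its last-exon region, chr3:30559092-30565145, ran from 30.1 over 63.8 to 174 with high intake and from 96.4 over 112 to 286 with low intake, a log2 difference of −1.03 ± 0.33 (SE). The 4 intergenic regions begin 216, 456, 663 and 902 bases past it and are 128, 155, 128 and 273 bases long. In the region at chr3:30565809-30565936, high-intake libraries ran from 38.7 over 56.9 to 165 and low-intake libraries from 75.3 over 99.5 to 246.

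In 7 of the 8 high-intake libraries, all but high gain high intake 4, this region stayed below every low-intake library. The log2 differences of the 4 regions were −0.90, −0.71, −0.92 and −0.98, each with an adjusted p of 0.597 in limma, and 3 of the 4 had an unadjusted p under 0.05. Without the 5 libraries low in first exons they were −0.75, −0.69, −0.83 and −0.83. With the covariate they were −0.57, −0.38, −0.55 and −0.55, and the exon region stood at −0.67. The 5 libraries low in first exons were high here, at 92.3 to 246 in this region against 38.7 to 101 in the other 11.

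**Figure D4:**
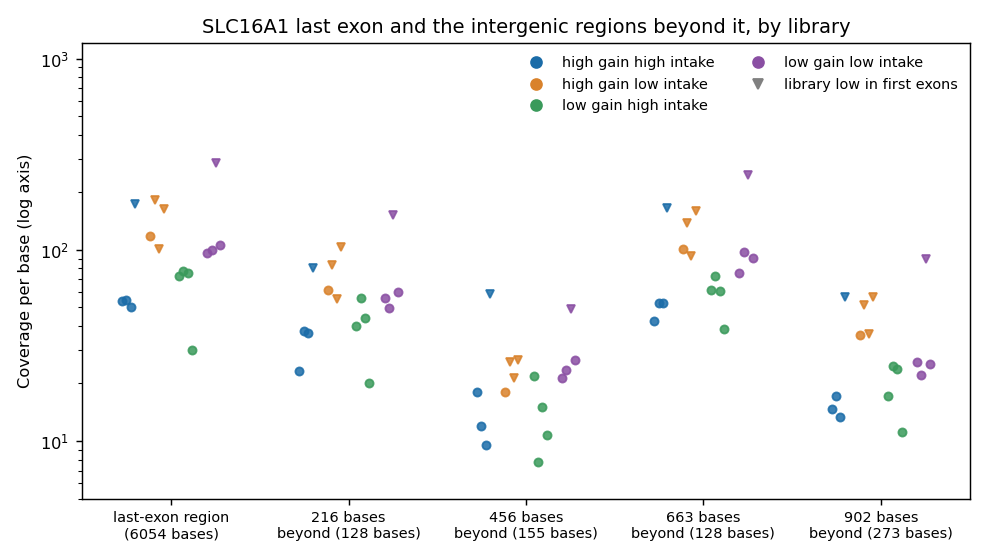
Coverage per base (log axis) in the SLC16A1 last-exon region and in the 4 intergenic regions that follow it, 1 point per library, coloured by group, with triangles for the 5 libraries low in first exons. Most low-intake libraries and high gain high intake 4 lie high, the sides overlap in all 5 regions, and the log2 differences for intake are −0.71 to −1.03.

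Other regions lower with high intake were chr3:114001839-114002118 near DNAJB3 in the UGT1A6 interval, chr19:21917159-21917323, chr3:2631048-2631142 and chr9:43898493-43898681, with log2 differences of −1.03, −0.97, −0.69 and −0.67. The last lies in the CRYBG1 interval, where high-intake libraries ran from 7.17 over 8.85 to 13.1 and low-intake libraries had a median of 15.4 and reached 17.7. High gain high intake 3 and 4, at 12.9 and 13.1, reached the low-intake range, whose lowest library was low gain low intake 1.

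Higher with high intake was chr19:14627003-14627305, 303 bases and 10708 bases from EXPI, an extracellular proteinase inhibitor. It ran from 206 over 473 to 971 with high intake and from 120 over 235 to 353 with low intake, so the sides overlapped, and the difference was 0.98 ± 0.33 (SE, adjusted p 0.597 in limma). EXPI's best exon region differed by 0.95 ± 0.36 (SE). The remaining 3 were chr4:105476204-105476256, chr29:23075937-23076018 and chr3:110113433-110115185, the last 1554 bases from STK40, with differences of 1.16, 0.84 and 0.71. With the 5 libraries low in first exons left out, these were 0.73, 0.46 and 0.22.

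The largest estimate for intake was at chr10:61085347-61085470. This piece of 124 bases between FGF7, the keratinocyte growth factor, and GALK2 ran from 8.02 over 129 to 273 with high intake and from 5.14 over 13.2 to 100 with low intake, a difference of 2.53 ± 0.70 (SE, adjusted p 0.597 in limma). The 5 libraries low in first exons held 5.14 to 13.8 and the other 11 held 12.7 to 273. Without the 5 the difference was 2.16 ± 0.54 (SE, adjusted p 0.602), and with the covariate 1.71 ± 0.44 (SE, adjusted p 0.650). The next piece, chr10:61085534-61085614, of 81 bases, had a median of 784 and an intake difference of 0.62 ± 0.54 (SE), which became −0.07 ± 0.15 without the 5 libraries.

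The interaction of gain and intake had its smallest p at chrX:111952402-111952471 and chr20:50652063-50652140, with log2 estimates of −1.95 and −1.06. Upward they were chr5:32529524-32529620, near VDR, the vitamin D receptor gene, with 1.20, and chr1:84324272-84324417, in the interval of KLHL6, with 1.05. All had an adjusted p of 1.00 in limma.

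Spread over the 16 libraries was close to that of exon regions. The SD of log2 coverage had a median of 0.50 over the 2589, 0.48 over exon regions at the same level, 0.52 in the short pieces and 0.44 in the long blocks. Among the steadiest regions were chr18:11679703-11686052 (6350 bases, 3.78 to 5.22) and chr2:119051218-119051312 between SP140 and SP140L (95 bases, 34.4 to 50.6).

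The 3 most variable regions were all under 100 bases, and their lowest values were in libraries low in first exons. At chr9:16326040-16326122, coverage was 4.17 in low gain low intake 3, 12.6 in high gain low intake 2 and 83.5 in high gain high intake 4, against 662 to 1119 in the 11 others. The remaining 2 of the 5 libraries had 674 and 1536. At chr21:14304504-14304595 the 5 libraries ran from 5.22 to 806 and the other 11 from 621 to 1030. Likewise chr1:54654733-54654830 had 8.90 to 447 in the 5 and 538 to 1276 in the 11. The SDs of log2 coverage were 2.46, 2.44 and 2.30.

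Neighbouring pieces of the same stretch did not all have these low values. On chromosome 26 between KIF11, a mitotic kinesin, and HHEX, a homeobox gene, 3 pieces of 142, 211 and 86 bases follow each other closely. The first, chr26:14093095-14093236, ran from 6.33 to 471 in the 5 libraries and from 521.5 to 1066 in the 11. The second, chr26:14093243-14093453, ran from 21.7 to 395 and from 282 to 458. In the last, chr26:14093464-14093549, the ranges were 554 to 845 and 525 to 1112 and overlapped almost entirely. The SD of log2 coverage went from 2.19 over 1.22 to 0.29 along the stretch. Beside the most variable piece on chromosome 9, a piece of 210 bases, chr9:16325822-16326031, kept 530 to 1215 in the 5 libraries and 512 to 842 in the 11.

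**Figure D5:**
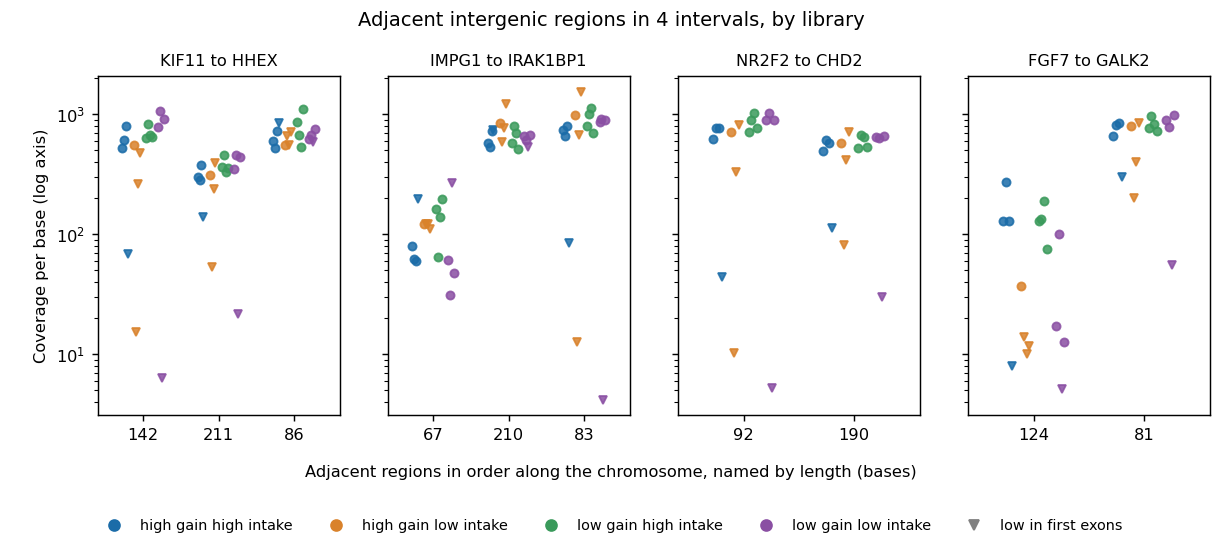
Coverage per base (log axis) of adjacent intergenic regions in 4 intervals, in order along the chromosome and named by their length in bases, 1 point per library. Triangles mark the 5 libraries low in first exons, which fall as low as 6.33 in the first KIF11 to HHEX piece and lie at 554 or above in the last.

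Most regions went the other way in those 5 libraries. The median log2 difference between them and the other 11 was 0.46 over the 2589 and 0.43 over exon regions at the same level, with 76.5% and 74.3% above 0. Only 105 of the intergenic regions (4.06%) differed by less than −1, and 235 by more than 1. Among regions with a pseudogene but no coding gene between their neighbours 7.69% were below −1, beside 3.88% of those with a coding gene, and 2.73% of the regions that follow a last exon. All 2589 together held 7.71 to 10.1% of the summed coverage in the 5 libraries and 6.16 to 8.56% in the 11. By group that share was 6.16 to 10.1% for high gain with high intake, 7.71 to 8.83% for high gain with low intake, 7.11 to 7.75% for low gain with high intake and 7.26 to 9.22% for low gain with low intake. The groups overlapped, and the part of the first-exon difference in any group difference was not tested.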

How the data were processed

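The deposited table lists regions of read coverage with 1 column per animal. The authors deposited a signal, the mean coverage of a region's bases multiplied by a library factor; summed over all bases it reaches 591 to 596 Mb per library. TopHat2 2.08b and UMD3.1 are named, per the submitters' processing notes. The aligner settings and annotation release were not given in the sources used here. Members and gene lists were chosen with earlier results of these data known. The 41375 nuclear regions at 3 or more in at least 4 libraries were fitted as log2(coverage + 0.1) with limma 3.58.1 in R 4.3.3 (trend and robust options) on 4 group means, and p-values were adjusted over all of them. Each side of gain or intake has 8 libraries, 1 per animal. The fit was run on simulated data with independent noise and each region's SD capped at the median over regions. That is less spread than in the real data, so the run cannot show how many real differences the fit misses. Named regions are the 10 highest, the 5 (interaction: 2) with the smallest p per direction, the 3 longest, farthest, most and least variable, the 3 largest groups, the threshold neighbours and up to 4 per list. Others were chosen after their values were seen. Some regions that this rule names are not reported here. Sequences were not used here.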

Additional observations from a re-analysis of the deposited data

Results flagged for a closer look

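In groups of 4, a library was listed by its gap to the nearest of the others. That gap, as a share of the group's range, had to exceed Dixon's critical value for 4 samples. Chance does this in about 1 of 20 groups that were not chosen by their values. Many of the named regions were picked for their spread over the libraries or a small p, so that rate does not apply to them. Of 180 groups examined (43 named regions and 2 library measures), 17 values were listed, 12 of them in the libraries low in first exons and 7 in low gain low intake replicate 3.

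In low gain low intake replicate 3, coverage was 8.90 at chr1:54654733-54654830, 5.22 at chr21:14304504-14304595 and 4.17 at chr9:16326040-16326122, against at least 859 in the other 3 libraries of its group. It was 2629 at chr14:26180709-26180812, 12.6 at chr25:7942583-7959378 and 80.2 at chr3:6365704-6367664, each above the others, and the median level of all 2589 regions there was 16.8 against 11.1 to 11.5. High gain low intake replicate 2 had 35.8 at chr3:6365704-6367664, 27.8 at chrX:111952402-111952471 and a median level of 16.7 against 12.5 to 13.2. High gain low intake replicate 4 had 1540 at chr15:8922471-8922557 and 9.62 at chr18:2111941-2112138.

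At chr10:61085347-61085470, high gain low intake replicate 1 had 37.0 and low gain low intake replicate 2 had 100.5, each above the rest of its group. Low gain high intake replicate 2 had 1282 at chr25:1417555-1417724 and replicate 4 of that group had 27.2 at chrX:66723374-66723467. High gain high intake replicate 1 had 13.3 at chr3:110113433-110115185.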

How the results depend on the processing

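With 0 regions called for gain, intake and interaction, the alternatives that gave other counts were the fit with no filter on values (2 for gain and 1 for intake, of 3234 and 159 among all regions), the first-exon index as covariate (72 for gain, of 3688), and the fit without the 5 libraries low in first exons (3 for gain, of 1119, which is 0.116% of the regions and 2.70% of all tested). Leaving out single libraries gave 0 to 22 calls for gain, all 22 without low gain low intake replicate 3 (2172 among all tested), and 0 to 0 for intake and for the interaction. The cause was not tested. The other pseudocounts, filter, scalings and limma options gave 0. Unadjusted counts still moved with scaling. After quantile normalization 317 regions had an unadjusted p under 0.05 in limma for gain, and 167 after rescaling outside the mitochondrial genome, against 59. For intake these counts were 178 and 286, against 211. Of 600 values for the 24 regions named for a contrast, none changed sign, and 8 passed the threshold, 5 of them without low gain low intake replicate 3. The number of regions was 1571 at a level of 5, 3767 at 2, 3279 at 3 in 15 of 16 libraries, 1816 from 100 bases and 2640 after rescaling to the total outside the mitochondrial genome. Leaving out 1 library gave 2591 to 2840. Within 1 kb of a gene were 259 and within 10 kb 603. No paired analysis was possible because each animal is in 1 group and no label links animals across groups. The fewest estimated reads behind a value were 3.76, so short regions of low level are the least precise.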
